A study of Mus musculus with 13 samples.

Results

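The regions described here are 300 sites of open chromatin that were present in every library and that ranked higher in cultured oligodendrocyte progenitor cells (OPCs) from mouse brainstem than in those from dorsal telencephalon. They were chosen by their measured values. The overlapping peaks of 13 ATAC-seq libraries were joined into 99746 merged peaks, of which 13075 were found in all 13 libraries and 12751 of those lay on autosomes. In each library these 12751 shared peaks were ranked by their highest fold enrichment, from percentile 0 to 100. The score of a peak was the mean percentile in brainstem minus the mean percentile in telencephalon, averaged over the 2 genotypes, and the 300 highest scores (2.35% of the shared peaks) were kept. Because the rule used the regional difference itself, that difference is described for these peaks and not tested.

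OPCs were isolated by panning on anti-PDGFRa from brains of AMGFAP-Cre;K27M litters at P5 to P7, pooled by region and genotype, after cells bound by a BSL1 dish, meant to remove microglia and endothelium, were left behind. They were kept in proliferation medium with no differentiation step. The 4 groups were 3 control brainstem libraries (cultures 51, 59 and 61), 3 K27M brainstem libraries (41, 59 and 61), 3 control telencephalon libraries (51, 59 and 61) and 4 K27M telencephalon libraries (41, 51, 59 and 61). The K27M cultures carried an H3.3 K27M knock-in at H3-3a that Cre releases from its stop cassette. The Cre is driven by a GFAP promoter active in neural stem and progenitor cells, and so acts in other glia and many neurons besides OPCs. Controls were littermates of the same FVB background, and the alleles of each control pool are not given in the sources used here. The telencephalon cultures, labelled cortex, also held corpus callosum and hippocampus. The shared peaks included 31 at, in or nearest to the 9 OPC markers searched, among them Pdgfra, Sox10 and Olig2.

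ATAC-seq reads where the Tn5 transposase can cut, which marks promoters, enhancers and other sites that are free of packed nucleosomes. Promoters rich in CpG are open in most cell types, whereas open sites in introns and between genes differ more between cell types. Brainstem and telencephalon arise from parts of the neural tube that express different sets of patterning transcription factors. Among these are the Hox genes and some Iroquois (Irx) genes in the hindbrain, and OPCs formed in these places come from progenitors with those programmes. Peak strength here is the fold of the signal over the background of its own library. Fewer cells with an open site and a weaker opening in each cell cannot be told apart in such pooled cultures.

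The sequences below belong to 7 of the 10 members in which the regions separated within each genotype, since these show the regional difference in both. For each, the stretch of the merged peak nearest to its centre that overlaps no annotated exon is printed, at most 300 bases of the mm10 plus strand, with CpG dinucleotides in capitals. Each label gives the place of the whole merged peak, and the printed stretch may lie outside the promoter itself. The Irx3 stretch lay 511 bp from the centre of its peak and does not hold the Irx3 start. The first 4 are the members in which every brainstem library ranked above every telencephalon library. The other 3 are the highest scores among the 6 members in which this held within each genotype but not over all libraries.
Irx3 promoter, chr8:91800799-91800964: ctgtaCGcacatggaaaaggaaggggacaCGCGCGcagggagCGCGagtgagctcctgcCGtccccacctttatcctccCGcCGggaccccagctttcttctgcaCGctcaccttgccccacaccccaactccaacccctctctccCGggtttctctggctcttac
Tspan15 promoter, chr10:62230720-62231019: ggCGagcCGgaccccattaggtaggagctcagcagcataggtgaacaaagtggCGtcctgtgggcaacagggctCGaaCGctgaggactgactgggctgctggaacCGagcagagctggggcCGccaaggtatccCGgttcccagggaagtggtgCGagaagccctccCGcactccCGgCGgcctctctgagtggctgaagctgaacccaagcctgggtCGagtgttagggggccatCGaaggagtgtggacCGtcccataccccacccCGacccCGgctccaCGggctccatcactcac
site between genes nearest to Psma6, chr12:55446841-55447140: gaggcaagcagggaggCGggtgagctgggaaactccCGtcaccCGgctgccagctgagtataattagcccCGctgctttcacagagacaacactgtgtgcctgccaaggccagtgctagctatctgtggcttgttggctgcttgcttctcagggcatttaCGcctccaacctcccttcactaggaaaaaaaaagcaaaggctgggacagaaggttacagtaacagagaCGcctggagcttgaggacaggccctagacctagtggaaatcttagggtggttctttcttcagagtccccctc
shared Mtx1 and Thbs3 promoter, chr3:89214431-89214730: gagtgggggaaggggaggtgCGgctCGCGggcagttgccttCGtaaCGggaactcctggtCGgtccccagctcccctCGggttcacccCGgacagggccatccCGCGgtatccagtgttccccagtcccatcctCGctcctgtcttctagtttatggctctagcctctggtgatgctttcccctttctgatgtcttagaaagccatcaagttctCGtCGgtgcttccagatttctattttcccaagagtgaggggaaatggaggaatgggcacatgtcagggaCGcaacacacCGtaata
Schip1 intron, chr3:68513989-68514288: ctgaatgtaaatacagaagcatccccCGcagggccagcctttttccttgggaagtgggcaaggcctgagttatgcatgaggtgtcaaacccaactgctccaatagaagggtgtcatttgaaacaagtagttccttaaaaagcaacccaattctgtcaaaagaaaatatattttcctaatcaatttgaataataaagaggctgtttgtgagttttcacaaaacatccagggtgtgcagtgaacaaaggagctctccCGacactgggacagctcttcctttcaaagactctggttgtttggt
Skap2 promoter, chr6:52012806-52013105: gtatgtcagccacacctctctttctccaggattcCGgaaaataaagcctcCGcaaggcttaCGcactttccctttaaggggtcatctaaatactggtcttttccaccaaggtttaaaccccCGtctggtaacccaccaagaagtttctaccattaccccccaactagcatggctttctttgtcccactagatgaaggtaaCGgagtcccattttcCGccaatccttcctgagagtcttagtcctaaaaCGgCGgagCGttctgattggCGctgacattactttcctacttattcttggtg
intron of the antisense gene Gm47578, nearest coding gene Csl, chr10:99834939-99835238: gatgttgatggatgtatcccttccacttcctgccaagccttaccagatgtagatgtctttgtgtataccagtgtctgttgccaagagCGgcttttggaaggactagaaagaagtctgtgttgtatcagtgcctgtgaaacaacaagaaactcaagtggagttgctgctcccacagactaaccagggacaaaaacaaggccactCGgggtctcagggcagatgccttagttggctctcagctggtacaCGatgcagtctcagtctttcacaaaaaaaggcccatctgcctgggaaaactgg

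The stretches from peaks labelled as promoters were the richer in CpG. The Irx3 stretch held 11 CpG in 166 bases, and those of Tspan15, Mtx1 with Thbs3 and Skap2 held 18, 15 and 10 in 300 bases. The stretch near Psma6 held 6, and those in the Schip1 and Gm47578 introns held 2 and 3. Of the short motifs searched on both strands, CAGCTG was found in the Psma6 and Gm47578 stretches and in none of the other 5. A match is a run of letters and does not show binding.

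The regional difference over the 300 members was broad and modest. Their median percentile lay between 64.1 and 66.9 in the 6 brainstem libraries and between 31.9 and 45.2 in the 7 telencephalon libraries, so the library medians did not overlap, as the choice of peaks fixes. In brainstem 214 to 233 of the members ranked above percentile 50, and in telencephalon 78 to 129 did. In units of fold, the median over members was 3.31 in telencephalon and 3.89 in brainstem. The median log2 difference, brainstem minus telencephalon, was 0.23, with a range over members of 0.18 to 0.44, and the median of all shared peaks was 0.06. The highest score was 43.8 percentile points, the median 21.9 and the lowest 18.7, and the SD of the score over all shared peaks was 9.1. The 300 lowest scores, which favoured telencephalon, ran from -48.0 to -18.7, so the opposite tail was about as long.

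**Figure D1:**
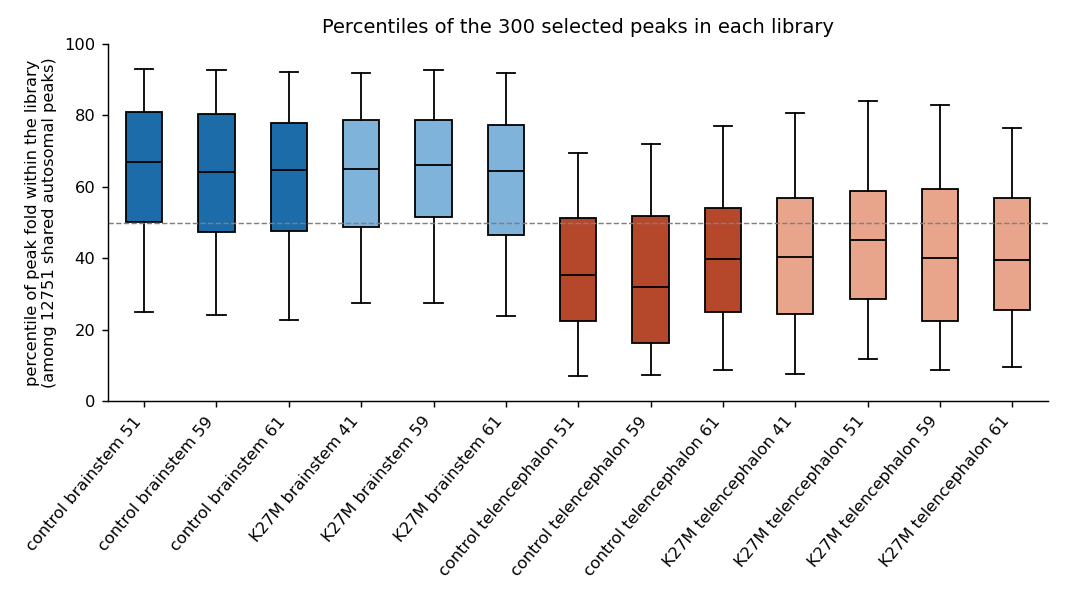
Percentile of peak fold within each library (vertical axis, 0 to 100) for the 300 members, 1 box per library, coloured by group. Boxes show the quartiles with the median as a line, whiskers run over the central 90% of members, and the dashed line marks 50. Medians are 64.1 to 66.9 in brainstem and 31.9 to 45.2 in telencephalon, a separation that the choice of members fixes.

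Libraries differed in the number of called peaks, 27768 to 52466 in brainstem and 16879 to 52164 in telencephalon. Brainstem medians stayed between 64.1 and 66.9 over that range of peak numbers. In telencephalon the lowest median, 31.9, was in control telencephalon 59, the library with the fewest peaks, and the highest, 45.2, in K27M telencephalon 51, the one with the most. The order did not hold in between, as K27M telencephalon 59 with 30248 peaks had 40.2 and control telencephalon 61 with 45322 peaks had 39.9. The part of the peak number in the member medians was not tested. Depth is unknown, as the lists give folds without the reads behind them, and no counting interval can be given.

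Members were mostly sites of middle rank. Their mean percentile over the 13 libraries had a median of 52.2 and ran from 20.6 to 82.8, whereas single shared peaks ran from 0.151 to 100. The spread between libraries of 1 group was larger for the members (median SD 17.3 percentile points) than for all shared peaks (14.5). Neither trait was particular to the members. The 300 shared peaks that favoured telencephalon had a median mean percentile of 50.2 and a median SD of 17.7. A peak at the very top or bottom of the ranking has little room to move between regions. Members were 790 to 4101 bp wide, with a median of 1573 bp, close to the 1666 bp of all shared peaks.

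Few members separated the libraries by region without any overlap. In 4 members every brainstem library ranked above every telencephalon library (1.33%), and over all 12751 shared peaks this held for 5, or 0.0392%, the fifth being the promoter shared by Mroh8 and Rpn2 at rank 1428. The reverse, with telencephalon above, held for 13 shared peaks. Within the control libraries alone, the brainstem range lay above the telencephalon range in 124 members against 5.22% of all shared peaks. Within the K27M libraries alone it did so in 55 members against 2.71%. The separation was present within both genotypes in 10 members and in 14 of all shared peaks. Since the rule used this contrast, nothing is read from the excess over these backgrounds. Leaving out a library relaxes the condition: the count of 4 became 5 without K27M telencephalon 61, and 6 without control telencephalon 59 or K27M telencephalon 51. It was 7 without control brainstem 61 or K27M telencephalon 59, and 8 without control brainstem 51 or 59, K27M brainstem 41, control telencephalon 51 or K27M telencephalon 41. It was 9 without control telencephalon 61, 10 without K27M brainstem 61 and 12 without K27M brainstem 59. The count over all shared peaks was not made in these settings, so nothing about the members is read from the rise.

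Irx3, an Iroquois homeobox transcription factor of neural patterning, had the widest gap between the regions. Its peak (chr8:91800347-91802221, rank 6, score 36.5) covered the promoter of Irx3 and of the antisense gene Irx3os. In control brainstem cultures 51, 59 and 61 it stood at percentiles 40.0, 22.7 and 43.1, and in K27M brainstem cultures 41, 59 and 61 at 56.2, 59.8 and 44.1. In control telencephalon it stood at 3.79, 17.6 and 6.69, and in the 4 K27M telencephalon cultures at 16.2, 3.96, 0.616 and 4.00. The lowest brainstem library was therefore 5.10 points above the highest telencephalon library, and the site was among the weakest shared peaks in most telencephalon cultures. The fold behind these ranks was 3.38 ± 0.49 (SD, n = 3) in control and 3.63 ± 0.49 (SD, n = 3) in K27M brainstem, against 2.57 ± 0.22 (SD, n = 3) and 2.57 ± 0.26 (SD, n = 4) in telencephalon. Reads from Irx3 and Irx3os cannot be told apart in ATAC-seq, which has no strand. Irx6, a gene of the same family on this chromosome, had a member at its promoter (rank 78, score 24.3), with 49.0 to 79.8 in 5 brainstem libraries, 13.5 in control brainstem 51 and 19.4 to 44.9 in telencephalon. Control brainstem 51 thus lay below every telencephalon library, while the other 5 brainstem libraries lay above all of them.

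Tspan15 encodes a tetraspanin that partners with the protease ADAM10. Its promoter peak (chr10:62230436-62232169, rank 92) stood at 67.0, 65.4 and 62.5 in control brainstem and 47.6, 69.9 and 45.0 in K27M brainstem. In telencephalon it stood at 28.8, 28.0 and 44.5 in control and 43.1, 41.1, 43.7 and 24.3 in K27M cultures. The gap between the regions was 0.557 points, far smaller than the spread within groups, and it was wide in controls and narrow in K27M.

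The peak nearest to Psma6, a proteasome subunit gene, lay 39608 bp from its start (chr12:55446298-55447592, rank 159). In brainstem it was strong, at 83.7, 96.2 and 86.5 in control brainstem and 89.9, 98.7 and 93.8 in K27M brainstem. The telencephalon values were 75.9, 56.5 and 82.2 in control and 57.2, 74.1, 68.1 and 73.4 in K27M cultures. The gap was 1.52 points.

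Mtx1, which encodes a mitochondrial import protein, and Thbs3, a thrombospondin of the extracellular matrix, share a promoter that held the fourth such member (chr3:89213431-89216410, rank 212). It was a weak shared peak, at 33.8, 32.0 and 22.9 in control brainstem and 47.2, 34.7 and 36.9 in K27M brainstem. It was weaker still in telencephalon, at 9.85, 8.59 and 11.5 in control and 16.2, 18.7, 18.4 and 20.5 in K27M cultures. The gap was 2.39 points, and which of both genes the peak serves cannot be read from its position.

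The other 6 members that separated the regions within each genotype overlapped when all 13 libraries were pooled. At Skap2, an adaptor of Src-family kinases, the promoter peak (rank 12, score 31.2) stood at 89.8, 87.3 and 84.4 in control brainstem against 30.6, 76.5 and 49.3 in control telencephalon. In K27M cultures it stood at 79.9, 62.0 and 45.9 in brainstem and 28.5, 33.9, 44.2 and 34.1 in telencephalon. At Hlx, a homeobox transcription factor gene, the promoter peak (rank 20) stood at 67.4, 54.9 and 47.9 against 32.6, 12.2 and 9.35 in controls. In K27M cultures it stood at 36, 27.6 and 8.66 against 7.58, 1.61, 5.83 and 1.31. The Schip1 intron peak (rank 5, a gene of a schwannomin-interacting protein) was higher in K27M brainstem, at 77.1, 62.4 and 85.4, than in control brainstem, at 47.9, 40.7 and 38.8. The telencephalon values for Schip1 ran from 2.54 to 44.4. The peaks in the Gm47578 intron (rank 16), at the promoter of Slc25a12 (rank 28), an aspartate and glutamate carrier of mitochondria, and at that of E2f8 (rank 62), an atypical E2F repressor, had gaps of -8.56, -1.04 and -9.51 points when genotypes were pooled.

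**Figure D2:**
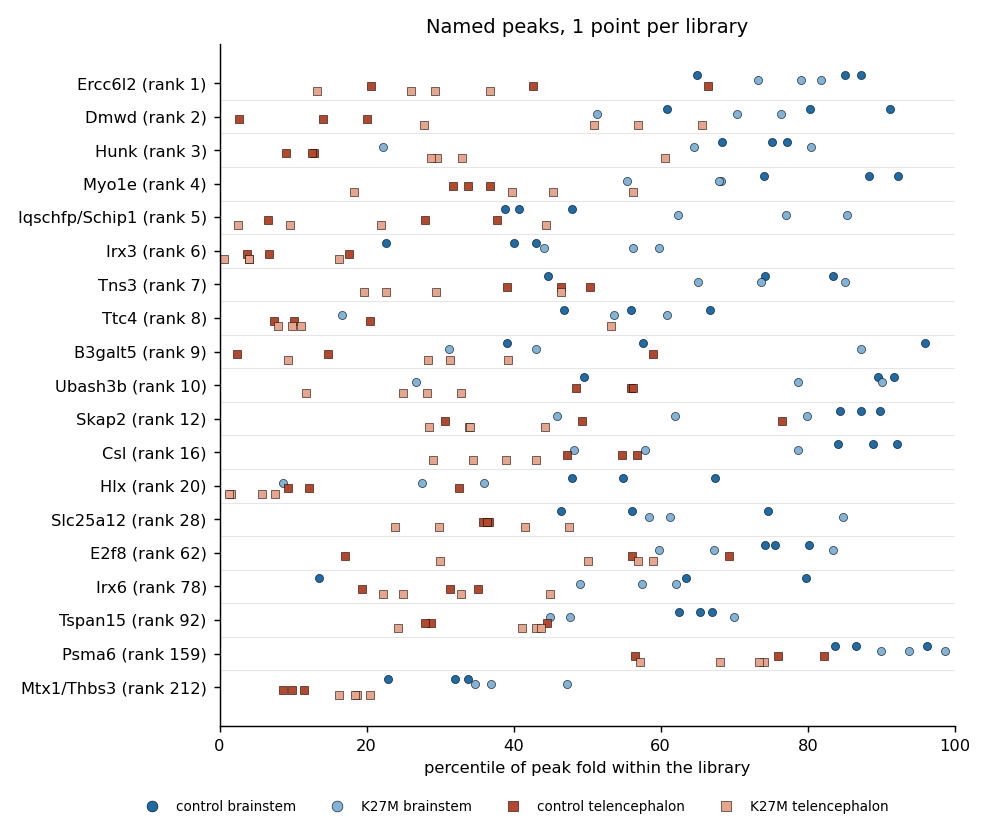
Percentile of peak fold within the library (horizontal axis, 0 to 100) for the 10 highest scores, the members that separated the regions and the members at Irx genes, 1 point per library, circles for brainstem and squares for telencephalon, coloured by group. Labels give the nearest or overlapping coding gene, which for Ercc6l2, Ubash3b and Csl is not the gene that holds the peak. In Irx3, Tspan15, Psma6 and Mtx1/Thbs3 every circle lies to the right of every square.

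The surroundings of the Skap2 member were examined further, a choice made after the values were seen. Peaks that were not shared by all libraries did not enter the rule, and 8 of them lay within 50 kb of the Skap2 member. All 8 were called in a larger share of brainstem than of telencephalon libraries (on average 33.3% against 12.5% of libraries). Of the 8, 1 was called in 1 brainstem and 1 telencephalon library and another in 6 and 6. Their shares differ only because there were 6 brainstem and 7 telencephalon libraries. One was called in 3 of 6 brainstem and no telencephalon libraries and one in 2 and none, while 5 of the 8 were called in a single brainstem library. Around Irx3, in contrast, 7 such neighbours were called in 19.0% of brainstem and 24.5% of telencephalon libraries. A peak 28555 bp from the E2f8 member was called in 5 of 6 brainstem and no telencephalon libraries. It was the neighbour of E2f8 most tilted to brainstem, picked after the values were seen. The share of such peaks among all peaks that were not shared was not counted, so nothing is read from it.

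Over all members, 1678 peaks that were not shared lay within 50 kb. They were called in 30.0% of brainstem and 28.6% of telencephalon libraries on average, a difference of 1.38 points. The same difference was 0.538 around all shared peaks and 0.629 around the 300 shared peaks that favoured telencephalon. Restricted to neighbours found in 5 to 8 libraries, 50% of 222 around members and 45.9% of 5870 around all shared peaks were called more often in brainstem, and the mean difference was -0.826 and -2.08 points, towards telencephalon. The number of peaks called per library moves with these shares, so they are given as a description.

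The 15 highest scores lay at promoters, in introns and between genes. The first was in an intron of the noncoding gene 1700024I08Rik, 113715 bp from Ercc6l2, a DNA repair gene. It stood at 64.9 to 87.3 in brainstem (median 80.5) and 13.2 to 66.4 in telencephalon (median 29.3), with control telencephalon 59 as the 1 library that reached into the brainstem range. The second was the promoter of Dmwd, a WD-repeat gene, at 91.2, 80.3 and 60.8 in control brainstem against 14.1, 2.59 and 20.1 in control telencephalon. In K27M cultures the Dmwd values were 76.3, 51.4 and 70.4 against 50.9, 56.9, 65.6 and 27.8, so the regional difference was 65.2 points in control and 15.7 in K27M. The intron of Hunk, a protein kinase, came next, with a difference of 62.1 points in control and 17.8 in K27M. The intron of Myo1e, a class I myosin, had 50.8 and 23.9.

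The next scores were the Schip1 intron and Irx3 (above), a site 43940 bp from Tns3, a tensin of focal adhesions, and the promoters of Ttc4, a co-chaperone, and B3galt5, a galactosyltransferase. A site in an intron of the noncoding gene 3110039I08Rik followed, 230594 bp from the nearest coding start, that of Ubash3b. The promoters of Ttll13, of the tubulin ligase-like family, and Skap2 came next. Introns of Nedd9, a Cas-family scaffold, and Snd1, a nuclease-domain protein, and a site 39214 bp from 2010300C02Rik closed the first 15, whose scores ran from 43.8 to 30.5. Between genes, the highest after Tns3 and 2010300C02Rik were 101792 bp from Fyn, a Src-family kinase used in myelination, 14194 bp from Gnaz and 30908 bp from Srp14. Fyn stood at 34.9 to 78.2 in brainstem and 10.7 to 55.0 in telencephalon. Of the 7 members in exons, the 5 highest lay in exons of a noncoding gene near Twsg1, of Scarf2, of Vps26c, of Ablim1 and of Sptbn4, a spectrin of axonal nodes. At Twsg1, a modulator of BMP signals, the whole difference came from controls: 54.6 points against -0.538 in K27M.

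By its position, Zfp608 was the nearest coding gene or host of 3 members (ranks 75, 97 and 143), more than any other gene. They were not 1 cluster. One between genes, 9803 bp from a start of Zfp608, and one in its intron lay 40754 bp apart, while the remaining one lay 631352 bp away at the promoter of the noncoding gene Gm24514. Arid3b, Cog6, Ncoa1 and Pfkfb3 had 2 members each. In all, 13 pairs of neighbouring members lay within 100 kb of each other, and members were found on all 19 autosomes. At the threshold, the peaks near or in Pdlim5, Cd82 and Alox5ap (the 3 lowest members) and those labelled Map7 and Dctd, just outside, all had a score of 18.7.

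Promoters, defined as 2000 bp before to 1000 bp after a transcription start, held 186 of the 300 members (62.0%), and 172 of these were promoters of coding genes. Introns held 54 members (18%), sites between genes 53 (17.7%) and exons 7 (2.33%). Among all shared peaks 69.2% lay at promoters, 16.7% in introns and 12.9% between genes. The 300 shared peaks that favoured telencephalon were of another make-up, with 38.3% at promoters, 38.0% in introns and 22.0% between genes. Thus 33.7% of the members lay over 10 kb from any coding start, against 57.7% of the telencephalon peaks and 27.8% of all shared peaks. Place did not enter the rule. These shares are a description of the lists and were not tested.

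**Figure D3:**
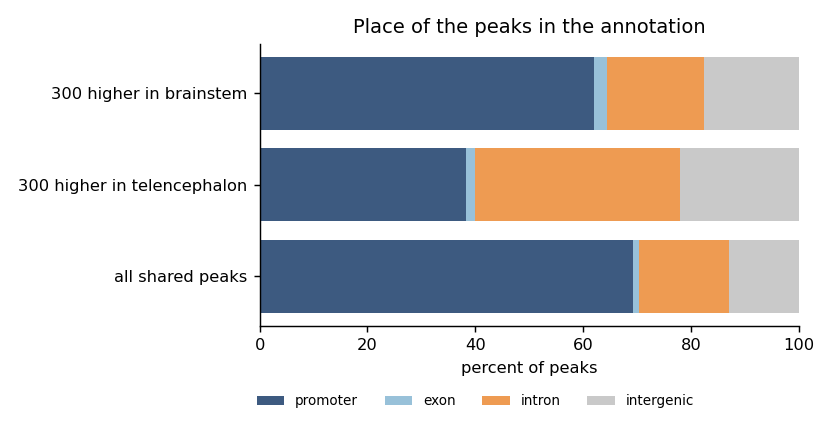
Percent of peaks (horizontal axis) at promoters, in exons, in introns and between genes for the 300 members, the 300 shared peaks that favoured telencephalon and all 12751 shared peaks. Promoters make up 62.0%, 38.3% and 69.2% of the 3 bars.

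Base composition was counted over all members and by place. In 300-base windows around the peak centres the members had a median GC content of 59.5% and 15.5 CpG. All shared peaks had 60.3% and 18, and the telencephalon peaks 50% and 5. At promoters alone the members had 65.5% GC and 25 CpG, the telencephalon peaks 61.3% and 20, and all shared promoters 65.3% and 26. Away from promoters the members had 50.7% GC, the telencephalon peaks 45.7% and all shared peaks 49.0%, each with a median of 4 CpG.

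Short motifs were counted in the same windows, on both strands, as a description. Of the 114 members away from promoters, 40.4% held CAGCTG, an E-box read by helix-loop-helix factors. The share was 32.4% of the 3927 shared peaks away from promoters and 27.6% of the 185 such telencephalon peaks. TGANTCA, the letters of AP-1, was found in 17.5% of these members and 12.9% of all, but also in 17.3% of the telencephalon peaks. The NFI core TTGGCA was found in 26.3%, 21.9% and 16.8%, and the SOX core ACAAAG in 37.7%, 38.1% and 45.9%, in the same order. Of the homeodomain motifs, TAATTA was in 10.5%, 9.01% and 11.9%, and the HOX with PBX letters TGATTNAT in 5.26%, 4.79% and 5.95%. The IRX letters ACATGT were in 7.89%, 5.98% and 7.57%, and the MEIS letters TGACAG in 24.6%, 23.2% and 18.9%. The motifs overlap in part, and no test was made of these shares.

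Members were counted in each gene list. Of the 34 shared peaks at, in or nearest to hindbrain and midbrain patterning genes, 2 were members, those at Irx3 and Irx6, and of the 16 at forebrain patterning genes none was. The median score of these lists was -0.46 and -2.44, beside -0.03 for all shared peaks, of which 2.35% were members. In the list of oligodendrocyte lineage transcription factors 1 of 80 peaks was a member, at E2f8, which also was the 1 member of 111 in the cell cycle list. The lists are not complete. Members labelled Cdca5, Cdca8, Zwint and Ticrr were in none of them, so a low count does not show that such genes are absent. None of the 31 peaks of OPC markers was a member. The same held for the 6 peaks of mature oligodendrocyte markers, the 8 of astrocyte, 6 of neuron, 1 of microglia, 2 of endothelium and 2 of pericyte and fibroblast markers, whose median scores were -6.99, -1.34, -1.48, 18.4, 8.78 and 1.24. The single microglia peak thus lay just under the lowest member. Lists with so few shared peaks say little about a cell type. The BSL1 step was meant to remove microglia and endothelium, and the part of these cell types in the members was not tested. The Notch, Hedgehog, lipid metabolism and immediate early lists, with 31, 17, 79 and 47 shared peaks, held no member.

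Among axon guidance and adhesion genes 4 of 257 peaks were members, at the Ntn1 promoter, in introns of Slit3 and Nlgn1, and between genes 226764 bp from Ncam2. The Ntn1 promoter, of the guidance cue netrin-1, stood at a mean percentile of 69.1 in control and 76.1 in K27M brainstem, against 52.2 and 45.6 in telencephalon. The list of growth factors and receptors had 6 of 99. It also counts Dusp13, a phosphatase gene and no growth factor or receptor, whose promoter peak is shared with Samd8. The others were at or near the genes of the ErbB ligands Nrg1 and Hbegf, the receptors Insr and Fgfr2 and the binding protein Igfbp3. The Nrg1 promoter stood at 58.2 and 73.1 in brainstem against 40.5 and 43.9 in telencephalon, with 4 of 6 brainstem libraries above every telencephalon library. BMP and TGF-beta genes had 3 of 46: the protease gene Bmp1, the co-receptor gene Tgfbr3 and a site 91435 bp from the ligand gene Bmp7. The Bmp1 promoter stood at 53.7 in control brainstem and 13.7 in control telencephalon, but at 25.8 and 24.8 in K27M cultures. Matrix genes had 4 of 131 (Col27a1, Thbs3, Col5a3 and Col3a1), channel genes 2 of 166, near Kcna6 and at the Kcna3 promoter, and WNT genes 1 of 50, in Znrf3, an inhibitor of the pathway. The Col3a1 peak lay 289047 bp from that gene. These shares range from 0% to 6.52% of a list and rest on at most 6 members each, so nothing particular to a list is read from them.

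The regional difference of single peaks was only weakly shared by the genotypes. Over the 12751 shared peaks, the brainstem minus telencephalon difference in control libraries correlated with that in K27M libraries with Pearson's r of 0.0956 and Spearman's rho of 0.0839. This is across peaks, which are not independent replicates, and it is given without a test. Members were chosen on the mean of both, and 291 of 300 had a positive difference in K27M and 299 in control. The median difference was 25.3 points in control (range -0.793 to 65.2) and 19.7 in K27M (-10.4 to 55.3), and the control difference was the larger in 187 members.

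Peaks were also ranked by the regional difference of 1 genotype and described in the other. All 13 libraries had entered the choice of shared peaks, and culture numbers recur in both genotypes. The genotypes are thus not fully independent, and the values are a description and no support for the members. The 300 highest by control libraries alone had a median difference of 30.9 points in those libraries and of 1.81 in K27M. Of them, 56.3% were positive in K27M, beside 50.2% of all shared peaks, and 127 were members. The 300 highest by K27M libraries alone had 27.4 points in K27M and 2.91 in control, with 56.7% positive beside 49.2%, and 103 were members. How much of each member's score is spread between libraries was not tested.

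**Figure D4:**
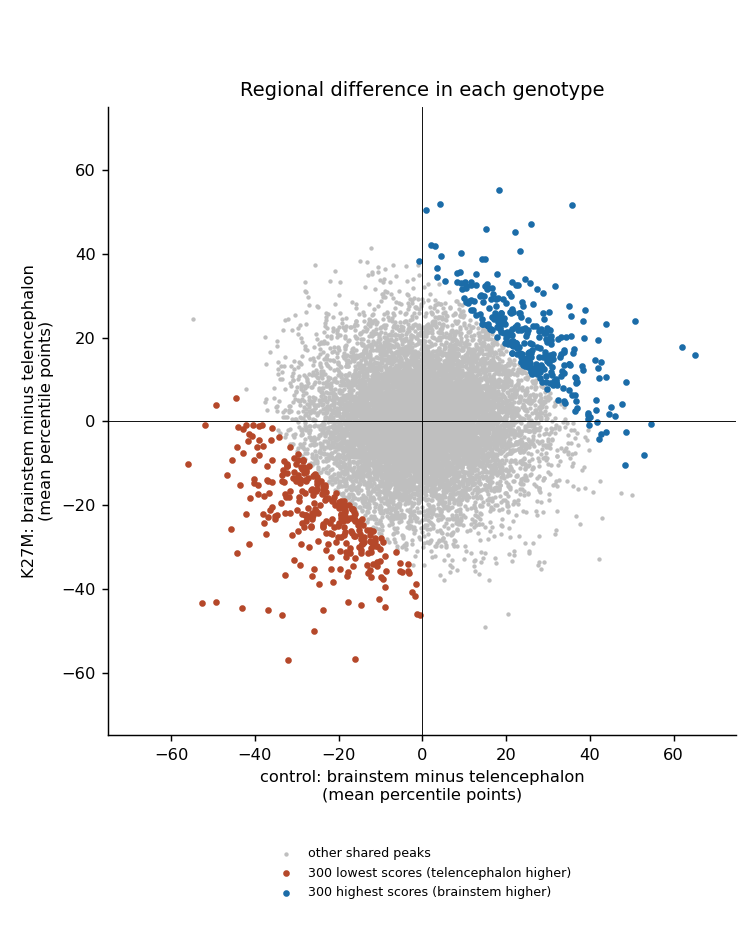
Brainstem minus telencephalon difference in mean percentile for control libraries (horizontal axis) and K27M libraries (vertical axis), 1 point per shared peak. Blue points are the 300 members and red points the 300 peaks that favoured telencephalon, both cut from the round cloud along a diagonal by the rule, and r over all points is 0.0956.

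Genotype was not what the rule used, so K27M was compared with control at these peaks by limma, fitted to log2 fold of all 12751 shared peaks with groups and culture number as terms. No shared peak passed an adjusted p of 0.05, that is 0% of all peaks and 0 of 300 members, and the smallest adjusted p in limma was 0.816. At an unadjusted p under 0.05 there were 607 peaks, or 4.76%, and 16 members, or 5.33%. The median log2 difference, K27M minus control, was 0.03 over members (central 90% from -0.11 to 0.15) and 0.00 over all shared peaks. The smallest p among members belonged to Hlx, with a log2 difference of -0.27 ± 0.07 (SE) and an adjusted p in limma of 0.816. The largest positive difference, 0.25, was at Tcaf2, with the same adjusted p. A p that misses the threshold does not show that the genotypes were alike at these peaks.

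The change of the regional difference with genotype was tested in the same limma fit. No peak passed, again 0% of all and 0 members, with a smallest adjusted p of 0.998. At an unadjusted p under 0.05 there were 568 peaks, or 4.45%, and 22 members, or 7.33%, of which 17 had a smaller regional difference in K27M. The median log2 interaction was -0.05 over members and 0.00 over all shared peaks. The selection used both regional differences, so the members' interaction values are not independent of it. Dmwd and Twsg1, named above for their difference in controls, had log2 interactions of -0.42 ± 0.15 and -0.43 ± 0.14 (SE) that did not pass (adjusted p in limma 0.998 for both).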

How the data were processed

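ATAC-seq was measured in 13 libraries. Reads had been trimmed, aligned to mm10 with BWA 0.7.17-r1188 and cleared of blacklisted regions and given to MACS2 2.2.7.1 by the authors, who called broad peaks on each library alone. The deposited lists give the fold (a ratio) of each peak over its own library's background. The deposited −log10 p-values served only in alternatives, for ranking, for cutting the peak lists and as the value tested in place of fold. Neither had been scaled between libraries by the authors.

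Peaks sharing 1 bp were joined, and the library value of a merged peak was its highest fold. Percentiles were taken among 12751 autosomal merged peaks found in all 13 libraries. Places came from GENCODE M21 (GRCm38) and sequences from the GRCm38.p6 genome. The centre of a merged peak was the median over libraries of the midpoint of the strongest peak. Groups and culture numbers came from the sample titles.

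Genotype and its interaction with region were tested with limma 3.58.1 in R 4.3.3 on log2 fold after quantile scaling, with culture number as a block, as the study accounts for matched cultures, and Benjamini-Hochberg adjustment at 0.05 over all shared peaks. The fit was tested on simulated data. Separate litters are not stated for every culture, so p-values measure the spread between these samples. Alternatives covered the ranked value, peak number and threshold, overlap, scaling, block and each library.

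Named members were the 15 highest scores, those at regional patterning genes, the 5 highest in each kind of place, genes with 3 or more members and those around the threshold. Others were named from the gene lists or after their values were seen. Members and lists were chosen with earlier results of these data known. Permutation of region labels was not used.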

Additional observations from a re-analysis of the deposited data

Results flagged for a closer look

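Among the 4 K27M telencephalon libraries, 38 values were checked for 1 library far from the others, and 4 stood apart by Dixon's 95% limit, where chance gives about 1 in 20. K27M telencephalon 51, the telencephalon library with the most called peaks (52164), had a median percentile over the 300 members of 45.2, with the other 3 at 39.6 to 40.5. For the Hunk peak, K27M telencephalon 41 stood at 60.6, with the others at 28.8 to 33.0. For the Ttc4 promoter, K27M telencephalon 59 stood at 53.3, with the others at 7.93 to 11.1. For the Tspan15 promoter, K27M telencephalon 61 stood at 24.3, with the others at 41.1 to 43.7, and without it the gap to the brainstem libraries is the same, since the highest telencephalon value came from control telencephalon 61.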

How the results depend on the processing

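Of the 300 members, 167 were again among the 300 highest when peaks were ranked by −log10 p, 297 by length-weighted mean fold and 231 by difference in mean log2 fold. With every library reduced to its 16879 most significant peaks, 8386 autosomal peaks were shared. They included 182 members, of which 171 were again among the 300 highest. Where a library's peaks had to cover at least 0.5 of the merged peak, 3150 were shared with 33 members, and all 33 were kept. In both cases the 300 highest were a larger share of fewer peaks, which makes it easier to be kept, so these counts say little about stability. With only peaks of p at most 1e-10, 853 were shared and none was a member, so no value could be given. Leaving out 1 library in turn kept 202 (without K27M brainstem 61) to 244 members. The count of members without regional overlap, 4 as reported, was 11 by −log10 p, 2 at equal peak numbers and 1 under the coverage condition, and 5 to 12 with 1 library left out. Fewer members were shared at equal numbers (182) and under coverage (33). What caused these drops, and the rise by −log10 p, was not tested. These counts were made among members only, without the share over all shared peaks, and nothing is read from them. All 610 recomputed scores of the 37 named members stayed positive, the lowest at 11.2, and 607 moved by less than 1 SD between replicates. The named members were chosen from high scores, and the alternatives reuse all or most of the same libraries. A positive score was thus nearly fixed by the choice and says little about stability.

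In limma, 37 of 38 alternatives gave 0 calls for genotype or the interaction, including the fit with no replicate block (0 and 0 calls). Without K27M telencephalon 59 there was 1 genotype call, which was no member, so the range with 1 library left out was 0 to 1. Culture numbers paired libraries weakly: deviations from group means correlated at -0.0572 to 0.167 over 16 same-number pairs (median 0.0667, 3 over 0.1) and with a median of -0.0348 over 47 other pairs. With culture pairs in the score (replicate block, which drops K27M telencephalon 51), 244 members were kept and 6 separated the regions. The 6 were again counted among members only. Unknown depth limits all values. A peak missing from a list was not called at that library's depth, and only peaks called in all 13 libraries could enter.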
